A study of Mus musculus with 2 samples.

Results

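The H2 genes of the mouse major histocompatibility complex (MHC) were examined for binding of CTCF in newborn kidney. Members were the protein-coding genes on chromosome 17 whose GENCODE symbol starts with H2-, which gave 34 of the 21755 protein-coding genes on chromosomes 1 to 19 and X. Of these, 24 encode class I heavy chains, 9 encode class II chains, and 1, H2-Ke6, is an enzyme gene of neither class that carries the prefix by position. CTCF was mapped by chromatin immunoprecipitation and sequencing (ChIP-seq) with an antibody against it in kidney tissue of the strain B6NCrl at postnatal day 0. The 2 libraries, replicates 1 and 2, form 1 untreated group, so there was no comparison between groups. Their labels give the same biosample and the same donor, so the spread between them may be technical. No sex was recorded, and kidney tissue mixes many cell types, so fewer bound cells and weaker binding per cell cannot be told apart.

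CTCF is a zinc-finger protein that binds a long, directional DNA motif, blocks contact between enhancers and promoters, and holds the ends of chromatin loops. Class I molecules, built from an H2 heavy chain and beta-2 microglobulin, show peptides from inside the cell to CD8+ T cells, while class II molecules show peptides from endosomes to CD4+ T cells. The class I genes arose by repeated duplication, and many are close copies. Most cells of the kidney carry class I, whereas class II is largely limited to antigen-presenting cells.

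The deposited optimal list, cut by reproducibility, held 65482 peaks and was the main list. Its peaks were not all listed in both libraries. Of its 256 peaks in the region with 50 kb on each side, 248 overlapped a peak of both libraries' own lists. A summit is the base at which the authors' caller placed a peak's highest signal. Each summit is described by its signal percentile within the optimal list (100 is the highest signal) and by its rank in each library's own list of 300000 peaks (1 is the highest). For counts in 1 library, the upper set is its 65482 highest peaks. A promoter peak is a summit within 1 kb of any annotated transcription start site (TSS) of a gene. Depth is unknown, since the lists hold no read counts. Positions are mm10 and on chromosome 17 unless another is named.

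The sequences that CTCF peaks of the region held are shown first, since the class I and class II parts differed in them. Each is the best match to a CTCF matrix within 100 bp of the summit, read 5′ to 3′ from the GRCm38.p6 genome on the strand given. Capitals mark positions 4 to 15 of the 19, the core of the motif. The first set holds the matches at promoter peaks of H2 genes, then the match at the highest-signal peak of each part of the region. The promoter peak of H2-T24 and the lower promoter peaks of H2-DMa, H2-Ke6 and H2-T23 held no match.
H2-DMa promoter, also the highest of the class II part (chr17:34135416-34135434, +): cttCCACCAGGGGGCggag
H2-Ab1 promoter (chr17:34264221-34264239, −): gacCCCCTAGGGGGCactc
H2-T23 promoter (chr17:36031708-36031726, −): ccaCCAACAGAGGGCatac
H2-Ke6 promoter (chr17:34027784-34027802, −): ctaGCGGCAGAGGGCgccg
Highest of the D and Q part, 8938 bp from H2-D1 (chr17:35274944-35274962, −): aggCCGCCAGGGGGCagca
Highest of the T part, near Gm11127 (chr17:36061023-36061041, −): acaCCAGTAGGTGGCgctg
Highest of the M part, near Olfr94 (chr17:37203814-37203832, −): tagCCACAAGGTGGCagca
Highest of the class III interval, in Vwa7 (chr17:35021322-35021340, +): ccgCCACCAGGGGGAgcca

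The second set holds a sequence that recurred a few kilobases upstream of class I genes, at the peak nearest each gene. The 2 spellings differ by T18C, counted from 1 at the 5′ end with H2-Q7 as the reference.
H2-K1 upstream (chr17:34003627-34003645, −): cttCCACCAGGCGGCgctg
H2-Q6 upstream (chr17:35420661-35420679, +): cttCCACCAGGCGGCgccg
H2-Q7 upstream (chr17:35435034-35435052, +): cttCCACCAGGCGGCgctg
H2-Q10 upstream (chr17:35465868-35465886, +): cttCCACCAGGCGGCgctg

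CTCF promoter peaks were found at few H2 genes. Of the 34 members, 5 had a promoter peak, 14.7% (95% Wilson interval 6.45 to 30.1, counting error only), beside 39.4% of all protein-coding genes. They were H2-DMa and H2-Ab1 of class II, H2-T23 and H2-T24 of class I, and H2-Ke6. That is 2 of 24 class I genes (8.33%, interval 2.32 to 25.85) and 2 of 9 class II genes (22.2%, interval 6.32 to 54.7). The class difference was not tested, since members share sequence and neighbours share peaks, and the intervals overlap widely. The conservative list and the upper set of replicate 1 each held promoter peaks at 5 members, beside 36.6% and 39.1% of all genes. The upper set of replicate 2 held them at 6, beside 39.2%, and the sixth was H2-K1.

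A wider window added class II genes and no class I gene. Within 2500 bp of a TSS, 5 of 9 class II genes and 2 of 24 class I genes had a summit, beside 49.9% of all genes. The class II genes added were H2-Oa, H2-Ob and H2-Aa, of which H2-Ob was added by an internal TSS only. Within 500 bp, H2-DMa, H2-Ke6 and H2-T24 remained, beside 32.1% of all genes, and in the upper 50% of optimal peaks by signal H2-Ab1, H2-DMa and H2-T23 had a promoter peak, beside 19.8%. Where the gene's 5′ end stood in for all its TSSs, 4 members had one, beside 31.3%. H2-DMa was kept there only by low-signal peaks shared with a neighbour, described below. Where the peak interval in place of the summit had to reach the window, the 5 were unchanged, beside 41%. Taken from each gene's TSS nearest a summit, the median distance was 1724 bp for class II genes and 8750 bp for class I genes. Over all protein-coding genes it was 2521 bp. Neither library moved these medians far. Class II genes gave 1728 bp in replicate 1 and 1736 bp in replicate 2, and class I genes 8752 bp and 8873.5 bp. The choice of TSS mattered more in class II. From the 5′ end the nearest summit lay at 3726 bp for H2-Ob, 5902 bp for H2-Ab1, 7738 bp for H2-Eb1 and 11634 bp for H2-DMb1. From their nearest TSS it lay at 1224, 891, 4030 and 7861 bp. For other class II genes and for class I genes both distances were equal or closer together. How far the class contrast rests on internal TSSs was not tested. When each library's whole list of 300000 was read, 12 of 34 members (35.3%) had a listed peak within 1 kb of a TSS in both libraries, beside 63.7% of all genes. Of these 12, 6 were class I and 5 class II.

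**Figure D1:**
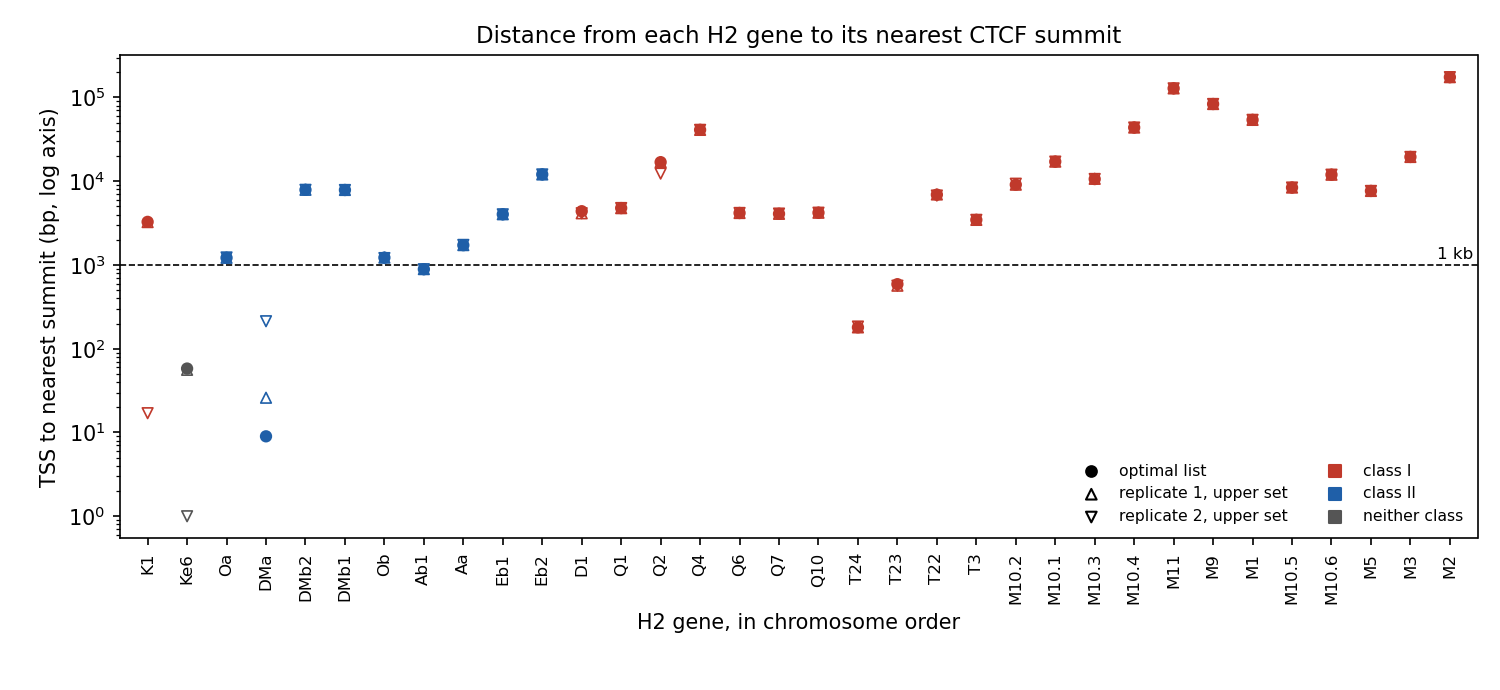
Distance in bp (log axis) to the nearest CTCF summit for each of the 34 H2 genes, taken from its TSS closest to a summit. The optimal list is shown as filled circles and the upper sets of replicates 1 and 2 as open triangles pointing up and down. The dashed line is 1 kb. Class I genes of the M part sit highest, up to 174880 bp for H2-M2, and H2-K1 falls below the line in replicate 2 only.

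Among class II genes, H2-DMa held the highest-signal peak of the whole H2 region. H2-DM, the heterodimer of H2-DMa with an H2-DMb chain, exchanges peptides on class II molecules. The peak ran from 34135205 to 34135624 and ranked 23 of 300000 in replicate 1 and 44 in replicate 2. In the optimal list it ranked 19, at percentile 99.97. Its summit lay 213 bp from a TSS, in an exon outside the coding sequence, and all 32-base words around it were unique in the genome. The motif match at that summit began 1 base after it and pointed in the direction of the gene. H2-DMa is annotated with 8 TSSs, of which 5 lie within 1 kb of a TSS of Brd2, a bromodomain gene upstream. Its other promoter peaks lay at those TSSs, were shared with Brd2 and had low signal, at percentiles 5.45, 1.83 and 4.41. The annotated body of H2-DMa, which includes those upstream starts, held 9 optimal peaks, the most of any member.

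H2-Ab1 and H2-Aa encode the beta and alpha chains of the H2-A class II molecule. The H2-Ab1 promoter peak, with its summit at 34264222 in an intron 891 bp from a TSS, ranked 34099 in replicate 1 and 27701 in replicate 2, at percentile 53.3. Its motif match pointed against the gene. The summit nearest H2-Aa lay 1724 bp from a TSS at 34286053, in an exon outside the coding sequence, and ranked 19606 and 26939 (percentile 66.3). That match pointed with the gene. Both peaks stood in the upper set of both libraries.

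H2-Oa and H2-Ob form H2-O, which inhibits H2-DM. The summit nearest H2-Oa lay 1219 bp upstream at 34091121 and ranked 33047 and 37323 (percentile 45.9). H2-Ob had 3 peaks in its body, and the nearest summit, at 34247240, lay 1224 bp from a TSS and ranked 28244 and 37255 (percentile 54.7). That TSS, at 34248464, is internal to the gene, and the other TSSs of H2-Ob lay 3726 to 5159 bp from a summit. A higher peak lay 3726 bp upstream of H2-Ob, with ranks of 5300 and 12919 and percentile 87.2. Its motif match pointed away from the gene. H2-Eb1, the beta chain of H2-E, held an intronic peak at 34313605 with ranks of 3112 and 5537 and percentile 94.3. That peak was also the nearest one to H2-Eb2, at 12060 bp. The remaining class II genes, H2-DMb1 and H2-DMb2, had their nearest summits at 7861 and 7892 bp, and for H2-DMb2 that summit was the H2-DMa promoter peak.

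The classical class I genes H2-K1 and H2-D1 had no optimal promoter peak. At H2-K1 the libraries differed. A summit 17 bp from a TSS ranked 52903 in replicate 2, inside its upper set, while the best peak within 1 kb of a TSS ranked 108687 in replicate 1. The pooled list placed its best promoter peak of H2-K1 at rank 73682. For H2-D1, replicate 1 listed a peak within 1 kb of a TSS only at rank 141154, and replicate 2 listed none. No member of the D and Q part had an optimal promoter peak, 0 of 7, and their nearest summits lay 4085 to 41057 bp away.

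The T part held both class I promoter peaks. H2-T23 encodes Qa-1, the ligand of inhibitory CD94/NKG2A receptors on natural killer cells. Its main promoter peak, with a summit at 36031739 in a coding exon, lay 802 bp from a TSS and ranked 28253 and 25780 (percentile 59.0). A second summit at 36031951 ranked 61183 and 46055 (percentile 40.7). Around the second summit only 35.3% of 32-base words were unique, against 82.4% around the first. The summit at H2-T24 lay at 36020740, 180 bp upstream of a TSS, ranked 31924 and 36643 (percentile 49.2), and stood in wholly unique sequence. H2-T3, the thymus leukaemia antigen gene, had a summit 3457 bp upstream with ranks of 7505 and 10086 (percentile 87.2). H2-T22, whose product is recognised by some gamma-delta T cells, had its nearest summit at 6910 bp.

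None of the 12 genes of the M part had a promoter peak, and the median distance to a summit was 18317 bp. Most of them, including the H2-M10 genes, are expressed in sensory neurons of the vomeronasal organ. The nearest of the 12 to a summit was H2-M5, at 7656 bp, followed by H2-M10.5 at 8405 bp. H2-M10.4, H2-M11, H2-M9 and H2-M1 stood together in a stretch of 308 kb between summits at 36418566 and 36726242 with no optimal peak. Within it the whole lists held 6 peaks in replicate 1 and 5 in replicate 2, and the best of them ranked 193094 and 131369. Unique words made up 70.2% of that stretch and it contained no assembly gap. Stretches over 100 kb between neighbouring optimal summits numbered 5307 of 65450 over the 20 chromosomes. Of the 257 that touch the H2 span plus 50 kb, 3 were that long. H2-M3, which presents formylated bacterial peptides, had its nearest summit at 19494 bp. H2-M2, the last member, lay 174880 bp from a summit, inside a stretch of 2808 kb without optimal peaks that runs past the region and holds 51 protein-coding genes, 38 of them olfactory receptors named Olfr.

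H2-Ke6, also called Hsd17b8, encodes a steroid dehydrogenase. Its promoter peak at 34027805, in a coding exon 58 bp from a TSS, ranked 43966 and 37860 (percentile 33.4). A second summit at 34028314 ranked 146053 and 46275 and was among the lowest of the optimal list, at percentile 0.35.

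A summit 3 to 5 kb upstream of the 5′ end was found at 6 of 24 class I genes, namely H2-K1, H2-D1, H2-Q6, H2-Q7, H2-Q10 and H2-T3, and at 1 of 9 class II genes, H2-Ob, beside 9.06% of all genes. This window was chosen after its values were seen, so the counts are a description. The peak upstream of H2-K1 ranked 23512 and 14267, that of H2-Q6 31031 and 19907, that of H2-Q7 28941 and 27662, and that of H2-Q10 26953 and 21341. Their percentiles were 70.8, 61.6, 56.1 and 62.6. All 4 stood in the upper set of both libraries, at moderate signal. All 4 held the recurring sequence shown above, and in each it pointed in the direction of the gene. The summit upstream of H2-D1, at 4386 bp, ranked 9484 and 13227 (percentile 82.7) and held no match, and that of H2-T3 held another one, gcaCCAGCAGGTGGCgctg (chr17:36193740-36193758, −).

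The spelling shared by H2-K1, H2-Q7 and H2-Q10 occurred 6 times on the 20 chromosomes searched, all within this region, and 5 of the 6 lay under an optimal peak. The spelling of H2-Q6 occurred once. A further copy under a peak (percentile 66.1, ranks 26077 and 16246) lay 3529 bp upstream of the pseudogene H2-K2 and pointed towards it. Another, at percentile 64.2 with ranks of 27613 and 18511, lay between H2-D1 and H2-Q1, 24392 bp before H2-Q1. The copy without an optimal peak lay 4135 bp upstream of H2-Q5, annotated as a polymorphic pseudogene, where each library listed only a lower peak, at ranks 123462 and 78721. Unique words made up 30.6% of the sequence around that copy and 35.3% to 53.5% around the others. How the authors treated reads that fit several places is not given in the sources used here, and its part in these values was not tested.

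**Figure D2:**
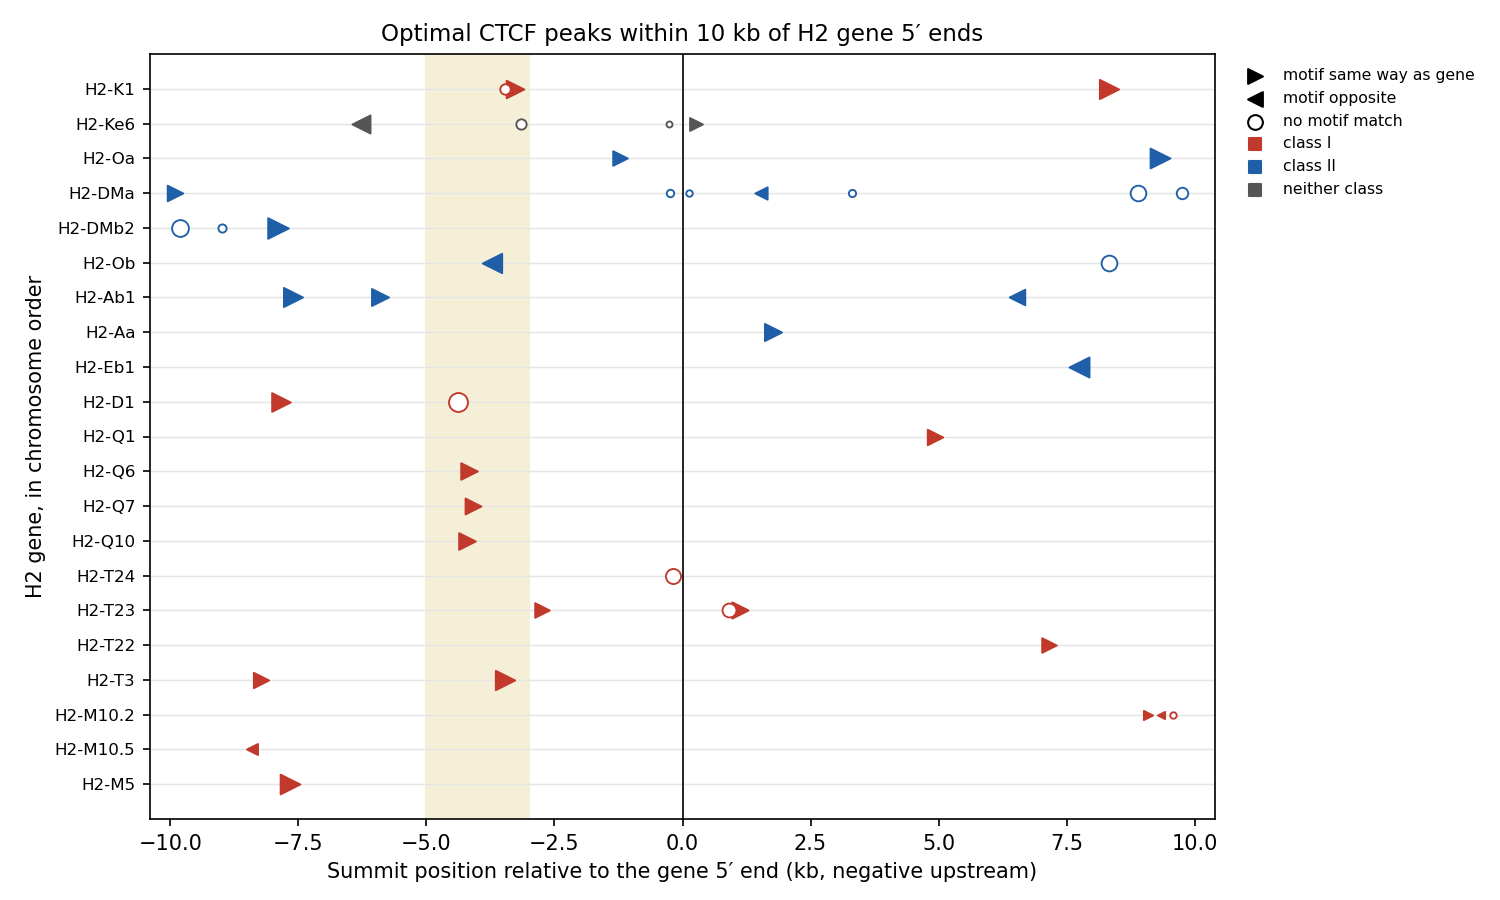
Positions of optimal CTCF summits within 10 kb of the 5′ ends of H2 genes, in kb and negative upstream, for the genes that have one; larger symbols have higher signal percentiles, arrowheads give the motif direction relative to the gene and circles have no match. The shaded band runs from 3 to 5 kb upstream. It holds summits of H2-K1, H2-D1, H2-Q6, H2-Q7, H2-Q10 and H2-T3 of class I, H2-Ob of class II and 1 summit beside H2-Ke6. The highest H2-DMa peak appears in the row of H2-DMb2 only.

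Copies of motif sites were common in the class I parts, counting the copies of this sequence in the D and Q part. Outside soft-masked repeats, 34 peaks of the class I parts had a motif match, and 19 of these sites (55.9%) had another site of the region that differed at 1 position at most. In the class II part this held for 0 of 13, and in the class III interval for 1 of 36. Of the 87 such sites outside the class I parts 4 had a near copy, and 2 of the 4 were the copies upstream of H2-K2 and H2-K1. Copied flanks accompanied some of the pairs. Around the sites upstream of H2-K1 and H2-Q6, 95.5% of the 200 surrounding bases were identical without gaps, and around those upstream of H2-Q7 and H2-Q10, 73.5%.

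In the T part the match in the coding exon of H2-T23 recurred within the gene body of Gm7030, with 92.5% of flanking bases identical. In the M part 3 sites carried the same 19 bases, with summits 10620, 13960 and 12166 bp from the nearest H2-M10 gene:
near H2-M10.3 (chr17:36357713-36357731, +): agaCCAGAAGGTGGCaaca
near H2-M10.5 (chr17:36786786-36786804, −): agaCCAGAAGGTGGCaaca
near H2-M10.6 (chr17:36824310-36824328, −): agaCCAGAAGGTGGCaaca
These were the only 3 occurrences on the chromosomes searched, and all lay under optimal peaks. Their summits ranked 31101 and 24127 near H2-M10.3, 62885 and 25945 near H2-M10.5, and 25389 and 14070 near H2-M10.6. All 3 ranked higher in replicate 2 than in replicate 1.

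Within 10 kb of a 5′ end, 13 of 24 class I genes and 7 of 9 class II genes had a summit, beside 62.8% of all genes. Over pairs of a gene and such a peak, the motif pointed with the gene in 14 of 16 class I pairs that had a match and in 7 of 11 class II pairs, beside 52.5% of such pairs over all protein-coding genes. Neighbouring genes can share a peak and copies share a direction, so these are counts without a test. The highest H2-DMa peak lies beyond 10 kb from that gene's 5′ end. It is paired here with H2-DMb2 only, 7892 bp upstream of it.

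Along the chromosome, the class II part held more peaks per Mb than the class I parts, which lay near the value of the whole chromosome. The span of the members, 3488 kb from 33996017 to 37483552, held 245 optimal peaks, and 256 with 50 kb added on each side, which is 71.4 peaks per Mb against 30.3 on chromosome 17 and 24.9 over the 20 chromosomes. The class II part, from H2-Oa to H2-Eb2, held 33 peaks in 249 kb, or 132 per Mb. In the upper sets it held 116 per Mb in replicate 1 and 145 in replicate 2. The class I parts together held 53 peaks in 1600 kb, or 33.1 per Mb, with 31.9 in replicate 1 and 33.7 in replicate 2. Each library alone thus gave the same order, though both come from 1 biosample, and how density varies between other stretches of the genome was not tested. With promoter peaks left out the densities were 96.4 and 26.9 per Mb.

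Within the class I parts, the D and Q part had 37.8 peaks per Mb (8 peaks), the T part 37.9 (7 peaks) and the M part 31.7 (38 peaks). In replicate 1 they had 42.5, 37.9 and 29.2, in replicate 2 42.5, 54.2 and 28.3, and outside promoters 37.8, 21.7 and 25.8. The M part was below D and Q in each of these counts, while the place of the T part, which holds few peaks, changed with the list. The body of H2-K1, which alone forms the K part, had none. The intervals between the H2 clusters were dense: the class III interval between H2-Eb2 and H2-D1 had 89.0 per Mb, and the stretches before H2-Oa, between H2-Q10 and the T part, and between the T and M parts had 109, 107 and 106. Widening each part by 50 kb brought the classes closer, to 117 per Mb for class II and 48.1 for class I.

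The parts also differed in how much of their sequence is unique. Words of 32 bases found once in the genome made up 87.5% of the class II part and 84.4% of the class III interval, but 48.1% of the D and Q part, 51.5% of the T part and 75.6% of the M part. The M part had the most unique sequence of the 3 class I parts and the lowest optimal density of them. Outside promoters the T part was lower, at 21.7 per Mb against 25.8 in the M part. The soft-masked share was 29.7% in the class II part and 29.4% in the D and Q part. The part of sequence uniqueness in these counts was not tested. Of the promoter windows, 3 members had under 50% unique words, H2-Q6 at 30.5%, H2-Q7 at 25.05% and H2-T23 at 45.2%, and H2-T23 of these had a promoter peak.

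**Figure D3:**
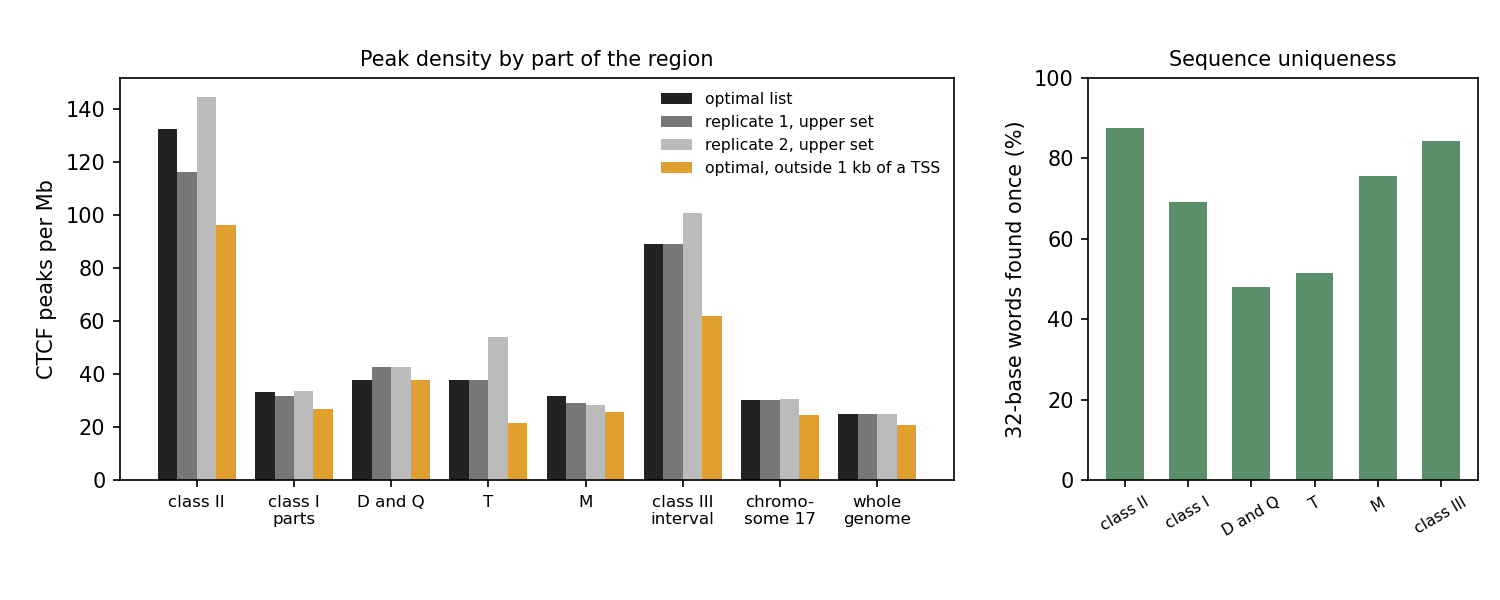
Left, CTCF peaks per Mb by part of the H2 region, beside chromosome 17 and the 20 chromosomes, in the optimal list, in the upper sets of replicates 1 and 2, and for optimal peaks outside 1 kb of a TSS; right, percentage of 32-base words that occur once in the genome. The class II part stands at 132 per Mb and the class I parts at 33.1, near the 30.3 of chromosome 17.

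**Figure D4:**
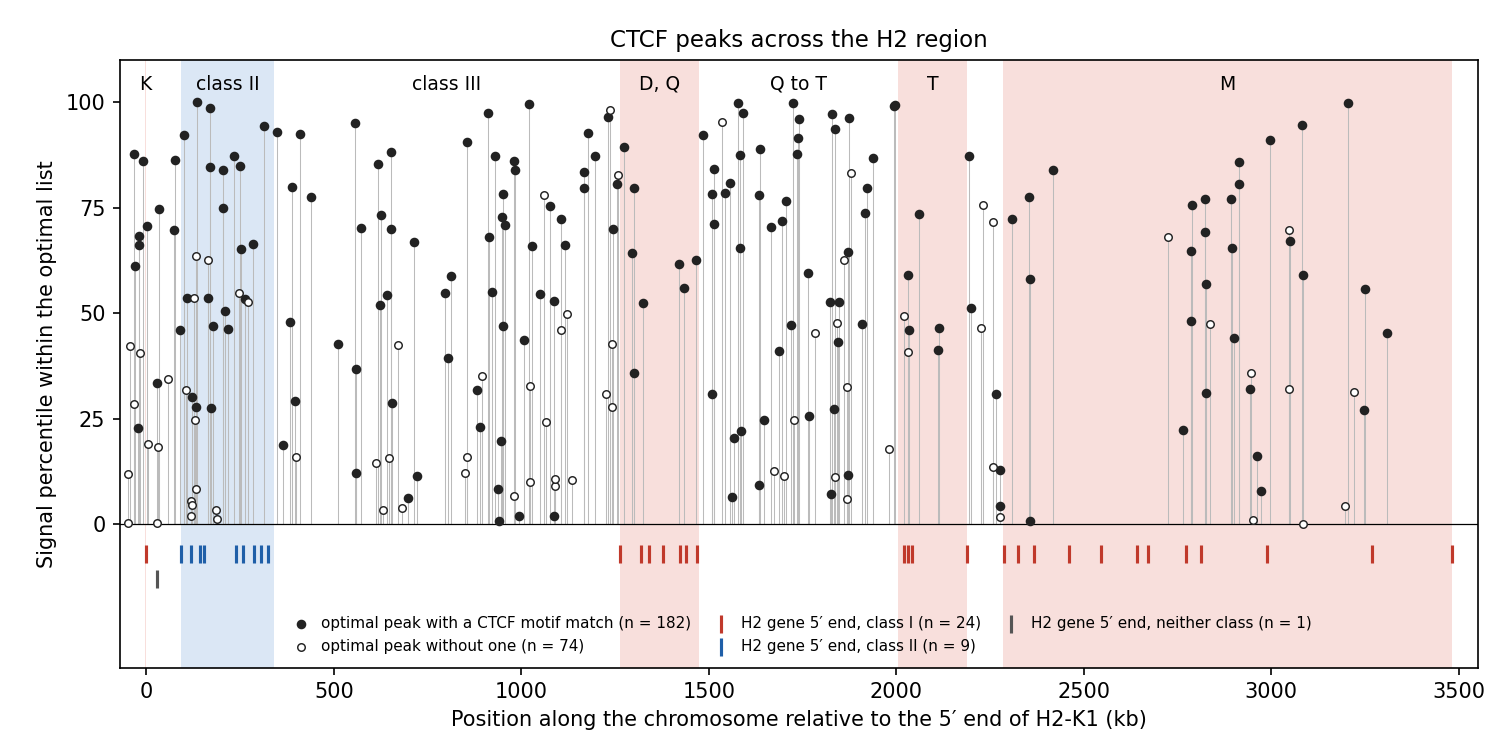
Optimal CTCF peaks of the H2 region by position along the chromosome (kb from the 5′ end of H2-K1) and signal percentile, filled with a motif match and open without; blue shading is the class II part, red the class I parts, and ticks below are H2 gene 5′ ends. Peaks crowd the class II, class III and Q to T stretches, and the M part has the 308 kb stretch with no peak.

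Of the 256 peaks, 71.1% held a motif match (interval 65.3 to 76.3), near the 67.6% of all optimal peaks and far above the 2.78% of control windows 2 kb away. The matches were split evenly between strands, 90 forward and 92 reverse. The share was 60.6% in the class II part (20 of 33) and 79.2% in the class I parts (42 of 53), and all 8 peaks of the D and Q part had one. In the T part all 5 matches were on the reverse strand, on which its 4 H2 genes also lie. They were not independent, since copies share a direction. The sites at summits 36031739 and 36110803 were copies (92.5% of flanking bases identical), as were those at 36035590 and 36114404 (91.5%, 1 difference). Peaks with a match had a median percentile of 66.2, and those without, 28.2. Over all optimal peaks these medians were 60.0 and 31.7, so a split of this kind was not particular to the region. Promoter peaks of the region had a median percentile of 40.0 and a match in 41.4%, against 59.3 and 82.3% for the others.

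Most peaks of the region, high or low, were not at H2 genes. Only 70 of the 256 were promoter peaks of any gene, and whether the highest differed in this was not tested. After the H2-DMa peak came intergenic peaks at 35725779, 21158 bp from the collagen receptor gene Ddr1 (ranks 514 and 119), and at 35578412, near 2300002M23Rik (156 and 259). A peak at 37203793 in the M part, 2799 bp from the olfactory receptor gene Olfr94, ranked 87 and 482, and the intronic peak of Vwa7 at 35021334 ranked 182 and 526. The pair at 35997146 and 35993827, beyond the GTPase gene Gnl1 and before the T part, ranked 207 and 1010, and 833 and 633. Next came a class II peak at 34170966, 12583 bp from Psmb9 (1041 and 1458), a promoter peak shared by Atp6v1g2 and Nfkbil1 at 35236524 (676 and 1670), and a peak at 35590995 near Sfta2 (5676 and 493). Of these 10, only the H2-DMa peak lay within 1 kb of an H2 TSS, and only the Atp6v1g2 peak held no match. Among class I parts, the highest peak of D and Q, at 35274959, ranked 7588 and 6121, and that of T, at 36061032, ranked 16466 and 18947.

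The libraries ordered the peaks of the region alike. Of the 256, 248 were matched in both lists (1 listed peak can match more than 1 of them), with a Spearman's rho of 0.908 across peaks, which are not independent replicates and were selected for reproducibility. Both upper sets held 204 of them (79.7%), replicate 1 alone 30, replicate 2 alone 11, and neither 11.

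**Figure D5:**
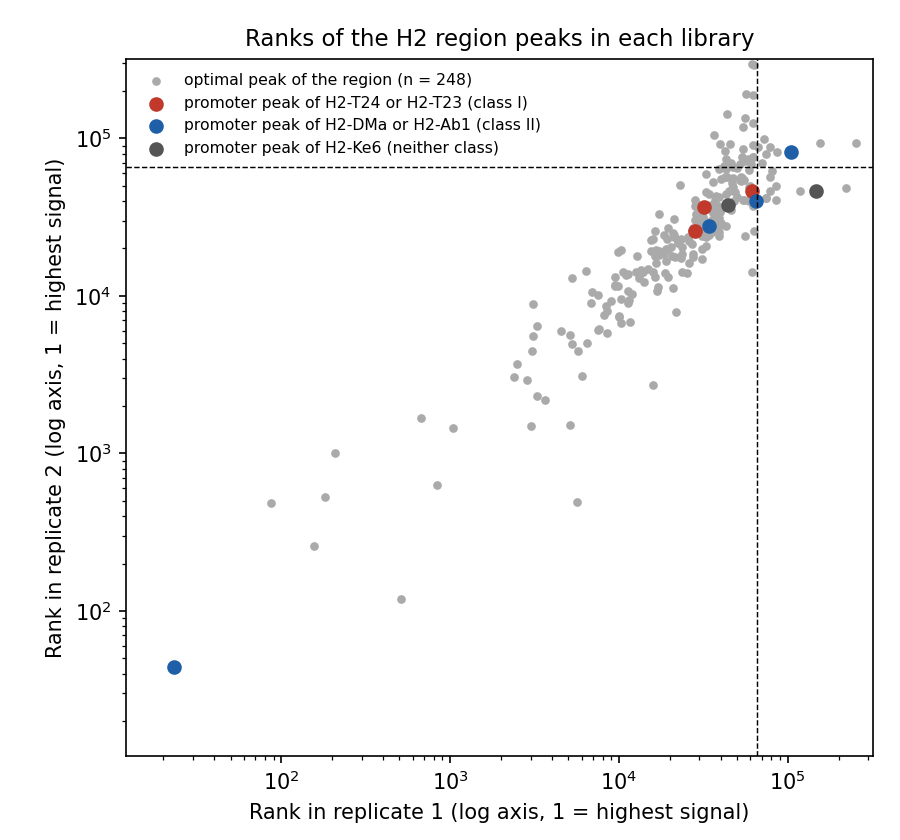
Rank of each of 248 optimal peaks of the H2 region in replicate 1 and replicate 2 (log axes, 1 is the highest signal), with promoter peaks of H2 genes coloured by class and dashed lines at rank 65482. The H2-DMa peak is at the lower left, at ranks 23 and 44, and the other main H2 promoter peaks lie in the middle of the cloud.

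Of the other 139 protein-coding genes of the span, 50 had a promoter peak (35.97%, interval 28.5 to 44.2), an interval that holds the 39.4% of all genes. It meets the upper end of the interval of the H2 genes, 6.45 to 30.1, and the difference was not tested. Among them, 1 of 19 Olfr genes (5.26%) had one, and 49 of 120 others (40.8%). In the class II part 4 of the 5 other genes had a promoter peak, and in the T part 0 of 5. The class II count changed with the list. It was 3 in the conservative list, 2 in the upper set of replicate 1 and 5 in that of replicate 2. All genes gave 36.6%, 39.1% and 39.2% in these lists.

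Genes that serve class I and class II presentation, on a list of 26, were read beside the H2 genes. Of the 25 found in the annotation, 12 had a promoter peak (48.0%, interval 30.03 to 66.5), an interval that holds the 39.4% of all genes, and its members are given below as values only. In the peptide-loading machinery of class I, Tapbp (tapasin) had a peak 53 bp from a TSS with ranks of 5754 and 8769, and Tap2, a subunit of the peptide transporter, had one at 100 bp with ranks of 9486 and 11800. Their percentiles were 88.4 and 83.8. Erap1, which trims peptides in the endoplasmic reticulum, ranked 9963 and 7701 (percentile 87.6). Calr and Pdia3, chaperones of class I folding, had peaks at percentiles 71.4 and 58.5. Tap1 and Psmb9, which share a promoter inside the class II part, shared a low peak (percentile 3.42, ranks 78593 and 57101). Psmb10, an immunoproteasome subunit, had one at percentile 21.2.

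Among regulators, Nlrc5, the activator of class I genes, had a promoter peak at percentile 26.3, Creb1 at 36.8 and Nfya at 21.6, while Ciita, the activator of class II genes, had its nearest summit 21058 bp away. Ctsl, an endosomal protease, had a peak at percentile 4.08. B2m, the light chain of class I molecules, had its nearest optimal summit at 5868 bp, but both upper sets and the conservative list held a peak within 1 kb of its TSS, at ranks 63370 and 52223. Psmb8, Canx and Irf1 likewise had a promoter peak in the conservative list and not in the optimal list. For Psmb8, which lies in the class II part, the upper set of replicate 2 held it (rank 53098) and that of replicate 1 did not (69619). In the upper set of replicate 1, 13 genes of the list had a promoter peak, beside 39.1% of all genes. In that of replicate 2 it was 16, beside 39.2%. With the optimal and conservative lists together it was also 16, beside 41.9%. The interval above is for the optimal list alone, and the count changed with the peak list.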

How the data were processed

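CTCF ChIP-seq peaks came from 2 libraries of 1 group. The authors deposited 5 peak lists on mm10: 1 for each library, 1 pooled, and 2 cut by reproducibility, named conservative and optimal. The signal value of each peak is the authors' own, on an unstated scale, and served here for ranks and percentiles inside 1 list. The summit offset in bases is also as deposited. The deposited −log10 q-value column ties many peaks at its highest value and ranked nothing. For the aligner, caller, filters and threshold nothing was given in the sources used here. With no read counts, depth is unknown, and intervals (Wilson, 95%) cover counting error only.

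Genes and TSSs are from GENCODE M21 and sequence from GRCm38.p6, both of the mm10 assembly. Each member is counted on the optimal list within 1 kb of any TSS, with no test, beside all genes. A 19-position matrix was learned in 10 rounds from optimal peaks outside soft-masked sequence on even-numbered chromosomes and X, so chromosome 17 was not used for it; a match passes the score that 1 in 10000 control positions passed, and with overlapping matches the best one on either strand was kept. Uniqueness is the share of 32-base words seen once on chromosomes 1 to 19, X and Y. Matrix learning, promoter calls and distances were tested on simulated data. Python 3.11.15, numpy 2.4.6, pandas 2.3.3, scipy 1.17.1, pysam 0.24.0, samtools 1.23.1 and matplotlib 3.10.9 were used. The members, lists and windows were chosen with earlier results of these data known. Named with values are H2 genes with a promoter peak or a summit within 2500 bp, the 10 highest peaks of the region, the highest of each part, list genes with a promoter peak or inside the span, and further members described by role. Alternative lists were the conservative list, the optimal and conservative lists together, each library alone and a stricter list. Other alternatives were peaks near a higher peak left out, other promoter windows, wider parts and other motif rules.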

Additional observations from a re-analysis of the deposited data

How the results depend on the processing

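No paired analysis was possible because all libraries belong to 1 group. With the upper 50% of optimal peaks, promoter peaks were left at 3 H2 genes (H2-Ab1, H2-DMa and H2-T23), 1 of class I, at 5 antigen-processing genes and at 29 genes of the span, beside 19.8% of all genes; the region then held 139 peaks, with 80.3 per Mb in the class II part, 18.7 in the class I parts, 45.6 in the class III interval, and a motif share of 89.2%. This setting keeps fewer peaks by construction. With promoters of 500 bp, 3 H2 genes had a peak, 1 of class I and 1 of class II, beside 32.1%; with 2500 bp, 8 had one, 5 of class II. With 5′ ends only, 1 class II gene, H2-DMa, had one, beside 31.3%. That call rested on low peaks shared with Brd2, at percentiles 5.45 and 1.83, and not on the highest peak of H2-DMa. The motif share was 40.6% with fixed letters for the core of the motif on either strand, held by 34.4% of all optimal peaks, and 19.9% with the score that 1 in 100000 control positions passed, beside 15.7% of all optimal peaks. Each library alone gave 5 to 6 H2 genes, 2 to 3 of class I and 2 of class II, 13 to 16 antigen-processing genes, 53 genes of the span, 244 to 277 peaks, 116 to 145 peaks per Mb in class II, 31.9 to 33.7 in class I, 89.0 to 100.9 in class III, and a motif share of 64.6% to 73.8%. The class II part was denser than the class I parts under each setting run, with the closest values, 117 and 48.1 per Mb, in widened parts.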
